A study of Mus musculus with 4 samples.

Results

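Loss of the mitochondrial calcium uniporter from hepatocytes was examined in liver that had not been operated on. The array of Mcu knockdown liver at 0 h was set against the array of control liver at 0 h, gene by gene, as knockdown minus control on the log2 scale. The comparison covered all 19505 genes of the series that had a named probe set, taking for each gene the probe set with the highest mean over the 4 arrays. It used 2 of the 4 arrays, and the 30 h arrays are given beside it as further readings of each gene. With 1 pooled array on each side there was no replicate spread, so no difference carries an error and no test was run.

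The study profiled total liver RNA before and 30 h after partial hepatectomy, in which 70% of the liver is removed and the remnant grows back. Per the protocol, knockdown animals were male C57BL6J mice with floxed Mcu alleles, 10 to 12 weeks old when AAV8-TBG-Cre was given through the tail vein. Control animals were male littermates given AAV8-TBG-Null, and the genotype label of their arrays reads Wild type. The genotype label of the knockdown arrays names a gene other than Mcu, against the titles, source names and protocol, which were followed here. Surgery followed 5 weeks after injection, and the 0 h liver of both groups is labelled as the control time. Each genotype is described as a pool of 4 animals, so the spread between animals is not seen. TBG is a promoter active in hepatocytes, so the other cells of the liver keep Mcu. The control vector carried no Cre, so the presence of Cre and the loss of Mcu cannot be told apart. Descriptions attached to the samples mention ethanol feeding, of which the titles, time labels and protocols say nothing.

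Mcu forms the pore through which calcium crosses the inner mitochondrial membrane. Calcium that enters the matrix activates dehydrogenases that feed the respiratory chain, in part by switching on the phosphatase that activates pyruvate dehydrogenase. Liver at rest is made up largely of quiescent hepatocytes, with Kupffer cells (resident macrophages), sinusoidal endothelial cells and stellate cells between them. These are bulk RNA levels, in which fewer cells of a type and less RNA per cell cannot be told apart.

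Mcu itself read 2.83 in knockdown liver and 4.77 in control liver at 0 h, and 2.63 in knockdown liver and 4.30 in control liver at 30 h. Both knockdown readings lay below both control readings. The 0 h difference was -1.94, or 3.84-fold lower, and only 2 of the 19505 genes had a more negative one. The 6 hepatocyte markers Alb, Apoa1, Ttr, Serpina1c, Cps1 and Tat were among the brightest genes on both 0 h arrays, and all 6 were slightly higher in knockdown liver, by 0.04 to 0.24. Values ran from 0.94 to 12.9 over the 4 arrays. A level is comparable between arrays for 1 gene and not between genes.

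The 2 arrays at 0 h were closely alike. Over probe sets they correlated with r = 0.974, and the median difference over all genes was 0.01. Genes whose mean over the 4 arrays reached the median of all gene means (3.83) are called bright, and 9759 of the 19505 genes were bright. Among these, 122 were at least 2-fold higher in knockdown liver (1.25% of bright genes) and 62 at least 2-fold lower (0.635%). Among the dim genes 160 were at least 2-fold higher (1.64%) and 182 lower (1.87%). The direction of small differences moved with brightness. The median difference was -0.06 in the dimmest of 5 equal groups of genes and 0.09 in the brightest, and 56.7% of bright genes were higher in knockdown liver by any size. A list of bright genes with a median near 0.1 therefore differed as bright genes in general did.

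**Figure D1:**
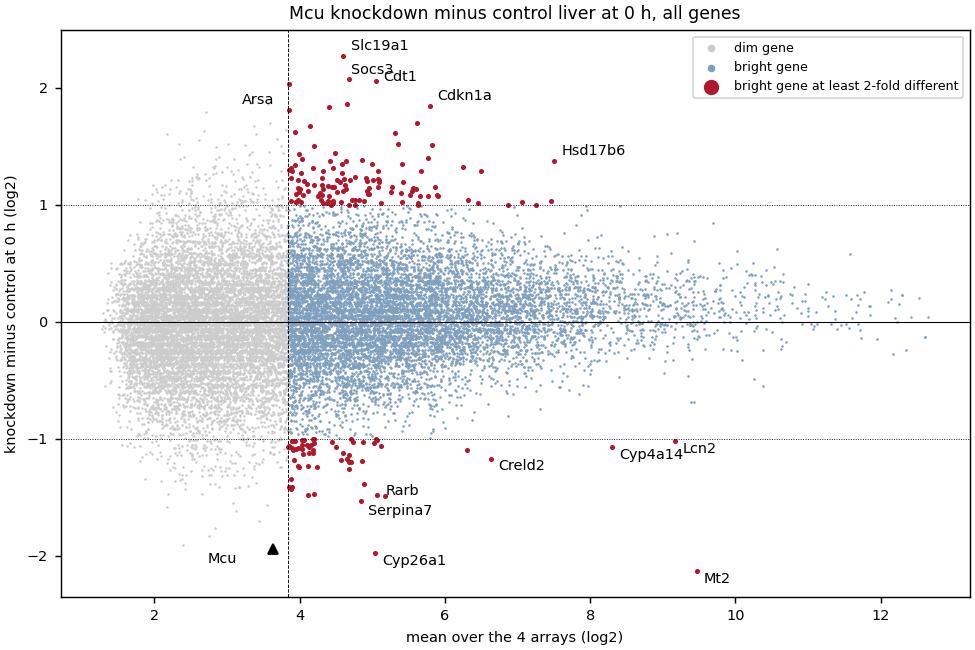
Each point is 1 gene, with its mean over the 4 arrays (log2) on the horizontal axis and its difference, knockdown minus control at 0 h (log2), on the vertical axis. Dotted lines mark 2-fold, the dashed line the level above which a gene is called bright, red points the 122 bright genes at least 2-fold higher and the 62 at least 2-fold lower, and the triangle Mcu at -1.94.

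The largest negative differences included targets of retinoic acid. Retinoic acid is a vitamin A derivative that acts through nuclear receptors on genes that carry paired receptor sites, and its known targets include the gene of the enzyme that degrades it, Cyp26a1, and that of the receptor RAR-beta, Rarb. Cyp26a1 read 3.62 in knockdown liver at 0 h, against 5.60 in control liver at 0 h, with 5.34 in knockdown and 5.58 in control liver at 30 h. Rarb read 4.00 in knockdown liver at 0 h, against 5.48 in control liver at 0 h, with 5.34 in knockdown and 5.45 in control liver at 30 h. For both genes the knockdown 0 h array stood alone and the other 3 arrays lay within 0.3 of each other. The differences at 0 h were -1.98 for Cyp26a1 (3.94-fold lower) and -1.48 for Rarb (2.79-fold lower).

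The promoters of these genes are shown because both carry a form of the receptor's paired site. They are stretches of the RefSeq promoters of GRCm38.p6, on the strand of the gene, and capitals mark the match to GTTCANNNNNAGTTCA or its reverse complement, a direct repeat with 5 bases between the repeats. Cyp26a1 is shown from chr19:37697736-37697807 on the plus strand, with the match 32 to 17 bases before the annotated start. Rarb is shown from chr14:16575477-16575568 on the minus strand, with the match 52 to 37 bases before the start.
Cyp26a1: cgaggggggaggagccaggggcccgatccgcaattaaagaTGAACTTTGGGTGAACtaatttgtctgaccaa
Rarb: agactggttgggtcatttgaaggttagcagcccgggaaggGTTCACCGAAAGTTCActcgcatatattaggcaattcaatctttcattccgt
These letters were searched on both strands in the 250 bases before each start and occurred in 9 of 32851 promoters (0.0274%). Other spellings of the paired site were not searched, so this share depends on the letters chosen. Of 15691 measured genes with a promoter sequence, 4 held a match. The other pair were Blvrb, a biliverdin reductase, with a difference of 0.31, and Tnfsf13b, a B cell survival factor, with 0.06. A match describes the letters of the promoter and does not show that a receptor was bound there.

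The retinoic acid list, these genes included, did not follow one direction. Of its 26 measured genes 14 were higher and 12 lower (51% and 48% of all genes), the median was 0.09 and the mean -0.07. Rdh10, which makes retinal from retinol, read 4.40 in knockdown and 5.14 in control liver, and Stra6, a retinol uptake receptor, 4.10 in knockdown and 4.82 in control liver. Dhrs3, which turns retinal back into retinol, was higher at 7.52 in knockdown, against 6.66 in control liver. Rdh11 was 0.79 higher and Tgm2, a transglutaminase known as a retinoic acid target, 0.69 higher. The lower genes and the higher genes of the list thus each included enzymes of retinoid turnover.

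Mt2 had the most negative difference of any gene. This metallothionein, a small protein that binds zinc and copper, read 6.02 in knockdown liver at 0 h, against 8.15 in control liver at 0 h. On the 30 h arrays it read 12.03 in knockdown and 11.67 in control liver. The 0 h difference was -2.13 (4.38-fold lower), while at 30 h both arrays were far above either 0 h array. Mt1 was lower in the same direction, at 6.94 in knockdown and 7.63 in control liver. Zinc importers of the plasma membrane were higher in knockdown liver, with Slc39a4 at 6.76 against 5.87, Slc39a14 at 6.47 against 5.81 and Slc39a5 at 3.70 against 3.07 in control liver. Of the 12 measured metallothionein and zinc genes 5 were higher and 7 lower, with a median of -0.10.

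Some other genes that read higher after surgery than at rest in both genotypes were lower in knockdown liver at 0 h. Lcn2, which withholds iron from bacteria, read 5.74 in knockdown and 6.76 in control liver at 0 h, and 12.08 and 12.09 in knockdown and control liver at 30 h. Orm2 read 7.08 in knockdown and 7.77 in control liver at 0 h, and Saa2, a serum amyloid, 6.56 in knockdown and 7.02 in control liver. Saa1 and Orm1, also higher after surgery, differed by only -0.04 and -0.02 at 0 h. The acute phase list as a whole had a median of -0.02, with 8 of 25 genes, all bright, higher and 15 lower (56.7% and 42.2% of bright genes). Il1rn, which encodes the interleukin-1 receptor antagonist, went the other way, at 3.86 in knockdown and 2.87 in control liver. A size of 1.5-fold was reached by 1 higher gene and 2 lower genes of the 25 (7.7% and 4.49% of bright genes).

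Among 18 transporters of bile acids and organic anions, 12 were higher and 6 lower (56.7% and 42.2% of bright genes), with a median of 0.14. The largest negative differences were in one transporter. Slc51a and Slc51b encode both subunits of the basolateral transporter that moves bile acids out of cells. Slc51b read 2.74 in knockdown and 4.21 in control liver at 0 h, and 4.00 in knockdown and 5.82 in control liver at 30 h. Slc51a read 2.99 in knockdown and 4.03 in control liver at 0 h, and 3.58 in knockdown and 2.89 in control liver at 30 h. Slc51b was thus lower in knockdown at both times (-1.47 and -1.82), and Slc51a, which is dim, only at 0 h. At 0 h both genes read at similar levels. Slc51b counts as bright by its mean over the 4 arrays, 4.19, in which the control 30 h reading is the highest. Abcc4, another basolateral exporter, was higher at 4.15 in knockdown, against 3.11 in control liver.

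The genes that make bile acids were mostly higher. Cyp8b1, the 12-alpha-hydroxylase that sets cholic acid output, read 7.81 in knockdown and 6.84 in control liver at 0 h. Cyp7a1, the rate-limiting enzyme of bile acid synthesis, read 7.39 in knockdown and 6.62 in control liver. At 30 h Cyp8b1 read 4.05 in knockdown and 3.31 in control liver, and Cyp7a1 6.78 in knockdown and 6.36 in control liver, so both were higher in knockdown at both times. Of 20 measured genes of bile acid synthesis and its control 15 were higher and 5 lower (56.7% and 42.2% of bright genes). Their median was 0.14, against 0.09 in the brightest of 5 equal groups of genes. Nr0b2, the SHP repressor that restrains Cyp7a1, was also higher, by 0.38. Mvd, an enzyme of the cholesterol pathway, read 6.66 in knockdown and 5.70 in control liver. Of 18 cholesterol synthesis genes 15 were higher (56.7% of bright genes), with a median of 0.24 at 0 h and 0.38 at 30 h.

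The interferon response list had the highest median of the 62 lists at 0 h, 0.49, against 0.01 for all genes. Of its 27 measured genes 21 were higher and 6 lower (51% and 48% of all genes), 8 were at least 1.5-fold higher (7.74% of all genes) and none was 1.5-fold lower (7.52%). Isg15, a ubiquitin-like modifier, read 3.80 in knockdown and 2.56 in control liver at 0 h, and 3.48 in knockdown and 2.97 in control liver at 30 h. Irf7, a transcription factor that amplifies the interferon response, read 6.19 in knockdown and 5.09 in control liver at 0 h, and 5.24 and 5.06 in knockdown and control liver at 30 h. Igtp, an interferon-inducible GTPase, read 5.03 in knockdown and 3.96 in control liver at 0 h, and 4.02 and 3.98 in knockdown and control liver at 30 h. For Irf7 and Igtp the knockdown 0 h array was the one that stood above the others.

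Ifit1, which binds foreign RNA, read 3.04 in knockdown and 2.10 in control liver, and the guanylate-binding protein gene Gbp2 read 2.66 in knockdown and 1.77 in control liver. Bst2, which tethers budding virus, was among the brighter members at 7.53 in knockdown and 6.87 in control liver. Parp14 was 0.74 higher, and the list's 15 bright members had a median of 0.34. At 30 h the list had a median of 0.02. Among 17 sensors of nucleic acids and interferon receptors the median was 0.12, with the RNA sensor Ifih1 at 6.51 in knockdown and 5.91 in control liver and the receptor subunit Ifnar1 lower, at 4.21 in knockdown and 4.84 in control liver.

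The promoters of Isg15 and Ifit1 are shown because they carry the sites at which interferon-activated factors bind. Capitals mark GAAANNGAAA or its reverse complement, the core of the interferon-stimulated response element. Isg15 is shown from chr4:156200835-156200936 on the minus strand, where 3 overlapping matches form 1 run, and Ifit1 from chr19:34640745-34640853 on the plus strand, with 2 matches.
Isg15: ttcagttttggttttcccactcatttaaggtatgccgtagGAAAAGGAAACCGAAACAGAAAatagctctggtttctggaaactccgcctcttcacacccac
Ifit1: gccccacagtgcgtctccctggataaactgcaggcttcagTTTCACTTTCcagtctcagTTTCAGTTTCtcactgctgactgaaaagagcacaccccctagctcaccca
The core occurred in 978 of 32851 promoters (2.98%) and in 11 of the 19 interferon genes with a promoter sequence. Those 11 had a median difference of 0.54 and the other interferon genes with a promoter 0.37. Over all 544 measured genes with the core in their promoter the median was 0.06, with 304 higher and 230 lower. The letters alone thus did not mark genes that were higher.

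Genes that present antigen on MHC class I, many of them interferon-inducible, were higher by less. Of 14 measured genes, all bright, 12 were higher and 2 lower (56.7% and 42.2% of bright genes), with a median of 0.27. B2m, the invariant light chain, read 11.94 in knockdown and 11.36 in control liver at 0 h, and 11.56 and 11.46 in knockdown and control liver at 30 h. The immunoproteasome subunits Psmb8 and Psmb10 were 0.62 and 0.57 higher, and the peptide-loading protein Tapbp 0.53 higher. Heavy chain genes differed by less, with H2-D1 at 8.34 in knockdown and 8.05 in control liver. H2-Aa, an MHC class II chain of antigen-presenting cells, read 6.30 in knockdown and 5.41 in control liver. Heavy chain genes are close relatives of each other, and cross-hybridisation between them was not tested.

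**Figure D2:**
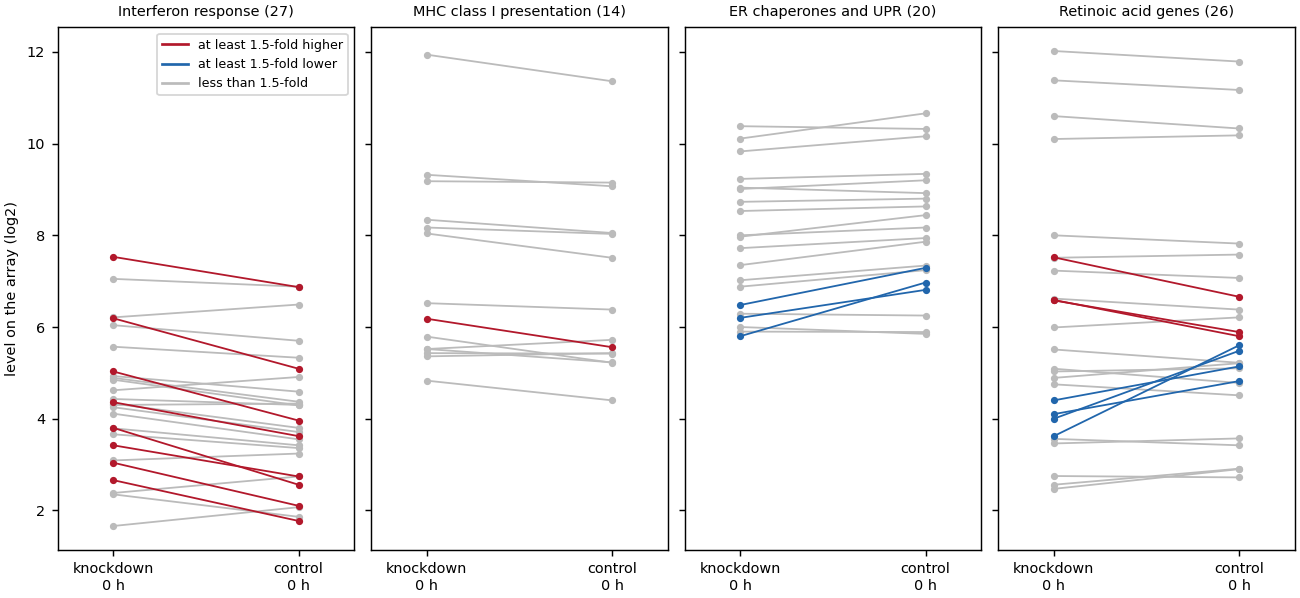
Each line joins the level of 1 gene (log2) on the knockdown 0 h array, left, to its level on the control 0 h array, right, for the 27 interferon response genes, 14 MHC class I presentation genes, 20 ER chaperone and unfolded protein response (UPR) genes and 26 retinoic acid genes. Red lines are genes at least 1.5-fold higher in knockdown and blue lines at least 1.5-fold lower: 8 interferon genes were red and none blue, 3 ER genes were blue and none red, and 4 retinoic acid genes were blue and 3 red. Of all genes 7.74% were at least 1.5-fold higher and 7.52% lower, and of bright genes 7.7% and 4.49%.

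Genes of the endoplasmic reticulum (ER) folding machinery were lower in knockdown liver. ER chaperones hold and fold secreted proteins, and their genes are switched on together when unfolded protein accumulates. Of 20 measured genes, all bright, 15 were lower and 5 higher (42.2% and 56.7% of bright genes), with a median of -0.21. Creld2, an ER-stress inducible foldase, read 5.80 in knockdown and 6.97 in control liver at 0 h, and 7.05 and 6.71 in knockdown and control liver at 30 h. Hspa5, the chaperone BiP, read 10.11 in knockdown and 10.66 in control liver at 0 h, and 10.37 and 10.40 in knockdown and control liver at 30 h. The knockdown 0 h array was the lowest of the 4 for both genes.

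Dnajb9, a BiP co-chaperone, read 6.48 in knockdown and 7.29 in control liver, and Atf6, a sensor of ER stress, 6.20 in knockdown and 6.81 in control liver. Edem1, which sends misfolded glycoproteins to degradation, was 0.51 lower and the chaperone Hyou1 0.47 lower. At 30 h the list had a median of 0.00, with 10 higher and 10 lower. Syvn1, a ubiquitin ligase of ER-associated degradation that was not on the list and was picked after its values were seen, read 6.11 in knockdown and 7.21 in control liver at 0 h, and 5.91 and 5.98 in knockdown and control liver at 30 h. For Syvn1 it was the control 0 h array that stood above the other 3.

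The promoters of Hspa5 and Creld2 are shown for the ER stress response element, in capitals, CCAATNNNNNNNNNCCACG or its reverse complement. Hspa5 is shown from chr2:34771985-34772083 and Creld2 from chr15:88819480-88819578, both on the plus strand.
Hspa5: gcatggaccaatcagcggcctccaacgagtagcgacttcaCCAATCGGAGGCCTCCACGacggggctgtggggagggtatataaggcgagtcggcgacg
Creld2: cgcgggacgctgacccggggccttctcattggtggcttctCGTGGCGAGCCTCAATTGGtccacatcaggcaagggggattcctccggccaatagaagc
The element occurred in 37 of 32851 promoters (0.113%) and in 7 of the 17 ER genes with a promoter sequence: Hspa5, Hsp90b1, Calr, Canx, Pdia6, Dnajc3 and Creld2. These 7 differed by between -1.17 for Creld2 and 0.06 for Calr, with a median of -0.22, and the other ER genes with a promoter had a median of -0.11. Of all 26 measured genes with the element 17 were lower and 8 higher (48% and 51% of all genes), with a median of -0.17. The 2 that were at least 2-fold lower were Creld2 and Syvn1.

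The cytosolic heat shock genes had a median of -0.19, with 9 of 14 lower (42.2% of bright genes). Dnajb1, a co-chaperone of HSP70, read 4.47 in knockdown and 5.17 in control liver, and the HSP110 gene Hsph1 5.20 in knockdown and 5.69 in control liver. Hspa1b, the inducible HSP70, was higher at 3.92 in knockdown, against 3.35 in control liver. The integrated stress response list, which includes the genes that mitochondrial damage often induces, had a median of 0.03. Its members Ddit3, the transcription factor CHOP, and Chac1 were each 0.45 lower, while the leucine sensor Sesn2 was 0.52 higher and the mitochondrial serine enzyme Shmt2 0.53 higher.

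Most mitochondrial genes other than Mcu differed little. Of the 11 measured genes of mitochondrial calcium transport, Smdt1, the essential regulator of the channel, was 0.32 higher, Vdac1, an outer membrane channel, 0.29 higher, and Mcur1 and the gatekeeper Micu2 0.28 higher each. Micu3 differed by 0.20, the carrier Slc25a23 by 0.18, the sodium-calcium exchanger Slc8b1 by -0.19, Vdac2 by -0.13, Vdac3 by 0.09 and Letm1 by -0.07. None of these 10 reached 1.5-fold, a size at which 7.7% of bright genes were higher and 4.49% lower. The 41 subunits of the respiratory chain and ATP synthase had a median of 0.10 (-0.02 after cyclic loess), no member reached 1.5-fold (7.7% of bright genes were 1.5-fold higher and 4.49% lower), and the extremes were Ndufb8 at -0.55 and Cox8a at 0.48.

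A few enzymes tied to mitochondrial function stood out singly. Pdp1, the calcium-activated phosphatase that switches pyruvate dehydrogenase on, read 3.44 in knockdown and 2.18 in control liver at 0 h, and 3.97 in knockdown and 2.74 in control liver at 30 h. Both knockdown readings of Pdp1 lay above both control readings, with differences of 1.26 and 1.23, although the gene is dim. The share of all genes with such an order was not counted. The pyruvate dehydrogenase subunits Pdhb and Pdha1 were 0.50 and 0.46 higher at 0 h, and the opposing kinase Pdk4 0.45 lower. The list of calcium-sensitive dehydrogenases and their regulators from which they come had 8 of 20 genes higher and 12 lower, with a median of -0.02. Polrmt, the RNA polymerase of mitochondria, read 4.64 in knockdown and 3.34 in control liver at 0 h, and 4.06 in knockdown and 3.35 in control liver at 30 h. Spg7, a protease of the inner membrane, was lower at 2.90 in knockdown, against 3.87 in control liver.

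Outside mitochondria, calcium genes included one large difference. Orai1, the pore of store-operated calcium entry at the plasma membrane, read 5.10 in knockdown and 3.73 in control liver at 0 h, and 4.97 and 4.77 in knockdown and control liver at 30 h. Its partner Stim1, the calcium sensor of the ER, was 0.33 higher. Atp2a2, the pump that fills the ER with calcium, read 7.04 in knockdown and 7.60 in control liver. The list of 13 genes had a median of 0.01. For Orai1 the control 0 h array was at least 2-fold below each of the other 3.

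The most positive differences were in genes of several kinds. Slc19a1, the reduced folate carrier, read 5.04 in knockdown and 2.77 in control liver at 0 h, and 5.21 and 5.38 in knockdown and control liver at 30 h. Socs3, a feedback inhibitor of interleukin-6 signalling, read 5.37 in knockdown and 3.30 in control liver at 0 h, and 5.11 and 4.95 in knockdown and control liver at 30 h. Arsa, a lysosomal sulfatase, read 4.14 in knockdown and 2.33 in control liver at 0 h, and 4.34 and 4.58 in knockdown and control liver at 30 h. In each the control 0 h array was low and the other 3 arrays lay close together. The differences at 0 h were 2.27 (4.82-fold), 2.07 (4.20-fold) and 1.81 (3.51-fold).

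The 4 arrays were arranged in different ways among the genes past 2-fold. Of the 122 bright genes at least 2-fold higher, the control 0 h array was at least 2-fold apart from all 3 other arrays in 34 (27.9%), and the knockdown 0 h array in 8 (6.56%). Of the 62 lower genes it was the control 0 h array in 7 (11.3%) and the knockdown 0 h array in 11 (17.7%). Over all bright genes it was the control 0 h array in 0.42% and the knockdown 0 h array in 0.195%. A gene with either 0 h array so far apart is past 2-fold at 0 h by definition, so picking genes past 2-fold raises these shares. The mean of the 30 h arrays lay nearer to the knockdown 0 h array than to the control 0 h array in 90 of the 122 higher genes (73.8%) and in 31 of the 62 lower genes, against 54.3% of all bright genes. Whether the control or the knockdown pool at 0 h was the unusual one cannot be told apart with 1 array each.

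**Figure D3:**
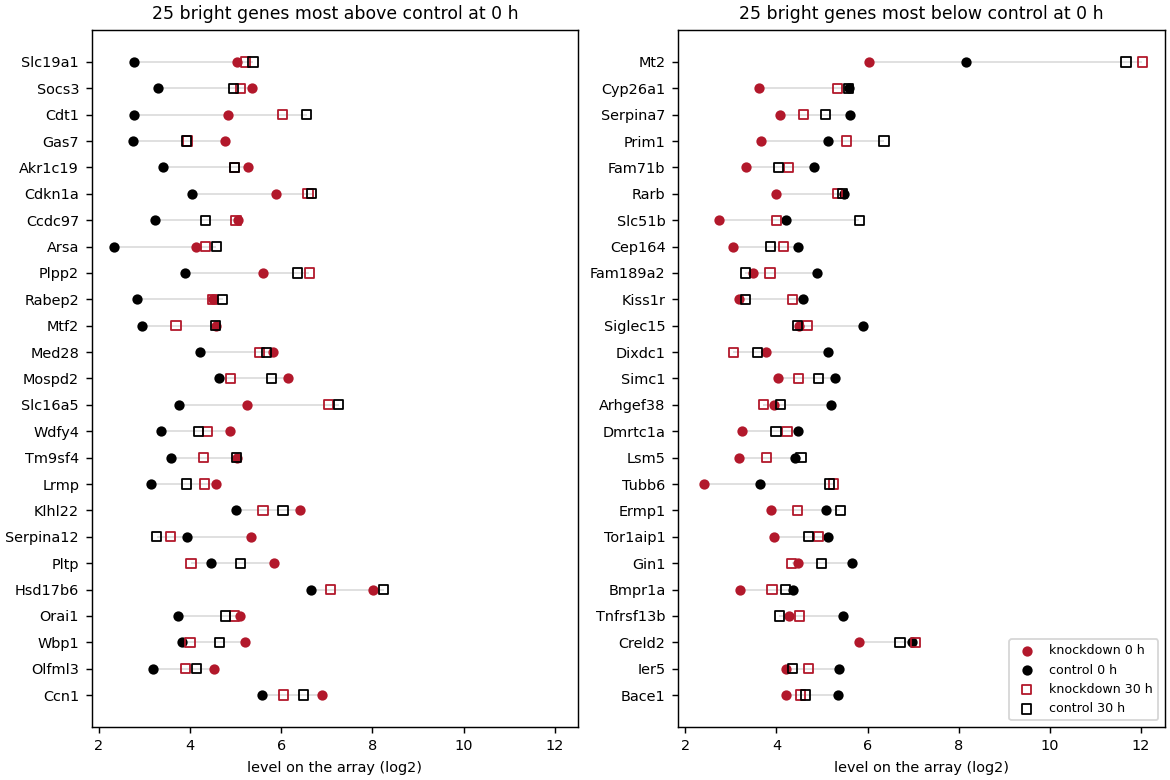
Levels (log2) of the 25 bright genes most above control at 0 h, left, and the 25 most below, right, on the knockdown 0 h array (filled red circles), control 0 h array (filled black circles), knockdown 30 h array (open red squares) and control 30 h array (open black squares). In 13 of the 25 higher genes the filled black circle lies at least 2-fold below the other 3 symbols, and in 6 of the 25 lower genes, among them Mt2, Cyp26a1 and Rarb, the filled red circle does.

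Other genes with a low control 0 h reading act in cell cycle control. Cdt1, which loads the replicative helicase onto origins, read 4.83 in knockdown and 2.77 in control liver at 0 h, and 6.02 in knockdown and 6.56 in control liver at 30 h. Cdkn1a, the cyclin-dependent kinase inhibitor p21 and a p53 target, read 5.89 in knockdown and 4.05 in control liver at 0 h, and 6.59 and 6.67 in knockdown and control liver at 30 h. Mcm6, a subunit of that helicase, read 3.88 in knockdown and 2.67 in control liver at 0 h, and 6.23 in knockdown and 7.60 in control liver at 30 h. All 3 read higher at 30 h than at 0 h in both genotypes, and the knockdown 0 h level of each lay between the control 0 h level and the 30 h levels.

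The DNA replication list as a whole was not shifted. Of 38 genes 22 were higher and 16 lower (51% and 48% of all genes), the median was 0.07, and 3 were at least 2-fold higher and 2 lower (1.45% and 1.25% of all genes). Pold1, the catalytic subunit of polymerase delta, was 1.31 higher. Prim1, the small primase subunit, read 3.65 in knockdown and 5.14 in control liver at 0 h, and 5.53 in knockdown and 6.36 in control liver at 30 h. Rfc3, a clamp loader subunit, was 1.00 lower. For mitosis the median was -0.27 and 20 of 33 genes were lower (48% of all genes). However, 20 of the 33 are dim, and the 13 bright ones had a median of -0.11.

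The p53 target list had a median of 0.29, and of 0.16 for members above percentile 75 of expression. Of its 21 genes 13 were higher and 8 lower, shares near those of bright genes (56.7% and 42.2%). After Cdkn1a its largest differences were Eda2r, a TNF receptor family member, at 2.58 in knockdown and 1.85 in control liver, and Trp53inp1, at 5.21 in knockdown and 4.51 in control liver. Zmat3 was 0.66 higher and Plk2 0.67 higher, while the BH3-only gene Pmaip1 was 0.67 lower. The early growth genes were mixed. Ccn1, a secreted matrix protein, was 1.32 higher, whereas Ier5 and Ier3 were 1.17 and 1.12 lower and Myc 0.55 lower, and the list of 24 had a median of 0.04.

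Most Kupffer, stellate and sinusoidal endothelial cell markers were higher in knockdown liver at 0 h, while most cholangiocyte markers, of which few are bright, were lower. Of 10 Kupffer cell markers, all bright, 9 were higher and 1 lower (56.7% and 42.2% of bright genes). Their median was 0.43 (0.06 for bright genes). Vsig4, a complement receptor of resident macrophages, read 5.70 in knockdown and 4.85 in control liver at 0 h, and 5.34 in knockdown and 5.97 in control liver at 30 h. Clec4f, a Kupffer cell lectin, read 6.51 in knockdown and 6.09 in control liver at 0 h, and 5.92 in knockdown and 6.19 in control liver at 30 h. At 30 h the list had a median of -0.27 (-0.11 for bright genes). The complement genes C1qc and C1qb were 0.72 and 0.59 higher at 0 h, and Timd4, a receptor of long-lived resident macrophages, 0.10 lower.

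Of 11 stellate cell markers 10 were higher (56.7% of bright genes), with a median of 0.42. Rgs5, a marker of mural and stellate cells, read 5.42 in knockdown and 4.22 in control liver, and Lrat, which stores retinol as esters, 5.51 in knockdown and 5.22 in control liver. Reln was 0.32 lower. Sinusoidal endothelial markers had a median of 0.24, with 9 of 12 higher and 3 lower (51% and 48% of all genes). Among the higher, Gpr182 read 5.34 in knockdown and 4.25 in control liver, and Fcgr2b was 0.81 higher. Among the lower, Pecam1 read 4.07 in knockdown and 5.01 in control liver, and the scavenger receptor Stab2 4.26 in knockdown and 4.66 in control liver. Of 5 cholangiocyte markers 4 were lower (48% of all genes), among them Krt19 at 2.45 in knockdown and 2.73 in control liver, though 3 of the 5 are dim. The bright ones, with a median of -0.055, went opposite ways. Krt7 read 3.99 in knockdown and 4.52 in control liver, and Sox9 4.56 in knockdown and 4.14 in control liver. Markers of T and NK cells (median 0.01), B cells (0.15), monocytes and dendritic cells (-0.07) and neutrophils (0.18) were nearly all dim.

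Interferon-inducible and lysosomal genes are also expressed by macrophages, so the Kupffer markers stand beside them. Summed over its members on the linear scale, the Kupffer marker list amounted to 9.17 in knockdown and 8.73 in control liver (log2), the interferon list to 9.86 in knockdown and 9.49 in control liver, and the lysosome list to 12.52 in knockdown and 12.33 in control liver. The part of the Kupffer markers in these differences was not tested. Of 26 lysosome genes 24 were higher (56.7% of bright genes), with a median of 0.21. Beside Arsa, the largest were Tfe3, a transcription factor of lysosome biogenesis, at 5.18 in knockdown and 4.09 in control liver, the macrophage-rich protease Ctss at 5.97 in knockdown and 5.14 in control liver, and the mannosidase Man2b1, which was 0.69 higher.

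**Figure D4:**
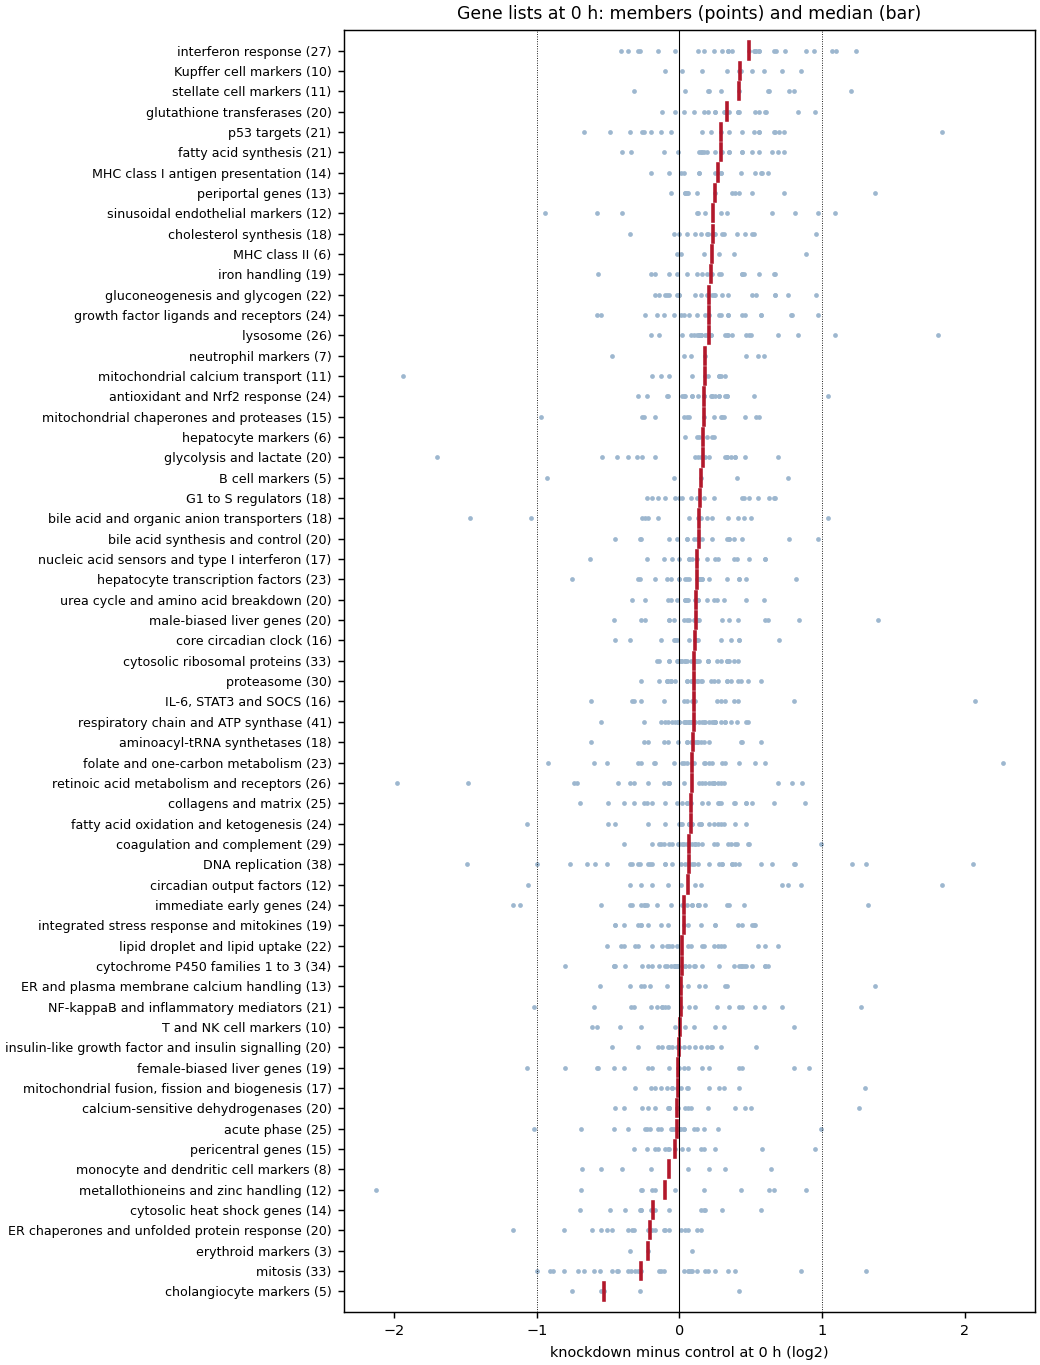
Differences of single genes, knockdown minus control at 0 h (log2, points), and their median (bar) in 62 gene lists, with the number of measured genes in brackets and dotted lines at 2-fold. Medians run from -0.53 in cholangiocyte markers to 0.49 in interferon response genes; 49 lists lie above 0 and 12 below.

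Among hepatocyte functions, glutathione transferases, which couple toxins and peroxides to glutathione, were higher as a family. Of 20 genes, all bright, 18 were higher and 2 lower (56.7% and 42.2% of bright genes), with a median of 0.34. Gstm2 read 7.97 in knockdown and 7.02 in control liver at 0 h, and 7.92 in knockdown and 8.90 in control liver at 30 h. Gstm6 was 0.83 higher and Gstt2 0.61 higher, and Gstp1 read 10.65 in knockdown and 10.24 in control liver. At 30 h the family had a median of -0.36 with 18 of 20 lower, while bright genes had a median of -0.11 with 61.2% lower. The Gstm genes are close in sequence, and cross-hybridisation was not tested. The wider antioxidant list had a median of 0.17 with 20 of 24 higher (56.7% of bright genes).

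Genes of fatty acid synthesis were mostly higher, with a median of 0.29 and 17 of 21 higher (56.7% of bright genes), led by the elongase Elovl5 at 9.19 in knockdown and 8.46 in control liver. Scd1, the stearoyl-CoA desaturase, read 10.54 in knockdown and 9.85 in control liver at 0 h, and 9.08 in knockdown and 8.22 in control liver at 30 h. The lipid droplet and lipid uptake list had 11 genes higher and 11 lower, with a median of 0.02. Gluconeogenesis and glycogen genes had a median of 0.21, and 14 of 22 were higher, a share near that of bright genes. Phka2, a phosphorylase kinase subunit, read 5.47 in knockdown and 4.51 in control liver, and G6pc, which releases free glucose, 8.80 in knockdown and 8.26 in control liver. The glucagon receptor gene Gcgr was 0.67 higher.

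Fatty acid oxidation genes had a median of 0.08, close to that of bright genes. Of these 24 genes 18 were higher and 5 lower (56.7% and 42.2% of bright genes). Their one large difference was Cyp4a14, an omega-hydroxylase and PPAR-alpha target, which read 7.28 in knockdown and 8.35 in control liver at 0 h, and 8.35 in knockdown and 9.24 in control liver at 30 h. Acot1 and Pdk4 were 0.50 and 0.45 lower, and Slc25a20, the acylcarnitine carrier, 0.47 higher. Slc16a3, a lactate exporter, read 2.54 in knockdown and 4.24 in control liver at 0 h, and 4.01 in knockdown and 2.95 in control liver at 30 h, so its order reversed between times, and it is dim. Slc2a1, a glucose transporter, was 0.69 higher.

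Genes of periportal hepatocytes, which line the blood inlet of the lobule, had a median of 0.25 with 12 of 13 higher (56.7% of bright genes). Pericentral genes, around its outlet, had a median of -0.03 with 7 of 15 higher. Hsd17b6, a steroid dehydrogenase, read 8.02 in knockdown and 6.65 in control liver at 0 h, and 7.08 in knockdown and 8.25 in control liver at 30 h. Cdh1, E-cadherin, read 7.44 in knockdown and 6.71 in control liver. Sp5, a Wnt target of the pericentral list, read 4.06 in knockdown and 3.11 in control liver, and Lgr5 5.13 in knockdown and 4.55 in control liver, while the Wnt targets Axin2 and Nkd1 were 0.23 and 0.32 lower. Pericentral genes therefore differed in both directions.

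Hormone- and time-dependent genes gave isolated differences. Serpina12, the adipokine vaspin and a male-biased liver gene, read 5.33 in knockdown and 3.94 in control liver at 0 h, and 3.58 and 3.27 in knockdown and control liver at 30 h. Serpina7, thyroxine-binding globulin, was lower at 4.08 in knockdown, against 5.61 in control liver. Tef, a clock-driven transcription factor, was 1.06 lower while its relative Dbp was 0.76 higher, and the core clock list had a median of 0.11. The chemokine Cxcl13 read 5.13 in knockdown and 3.86 in control liver, and Vcam1, an adhesion molecule, 2.70 in knockdown and 3.72 in control liver. Mbl2, a mannose-binding lectin, was 0.99 higher.

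Few of the large differences at 0 h were found again at 30 h. The 2 comparisons share no array. Of the 122 bright genes at least 2-fold higher at 0 h, 3 were again higher by that much at 30 h (1.14% of bright genes) and 6 were lower by that much (2.16%). Of the 62 lower genes, 2 were again lower by that much at 30 h and 2 were higher by that much. Counting any size, 51 of the 122 were higher at 30 h, which is 41.8% against 37.8% of all bright genes, and 29 of the 62 were lower, 46.8% against 61.2%.

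The bright genes past 2-fold in the same direction at both times were Slc51b and Hook3 among the lower and Pheta2, Cdpf1 and the predicted gene Gm20852 among the higher, named here because the count is small. Hook3, a dynein adaptor, read 4.68 in knockdown and 5.69 in control liver at 0 h, and 4.29 in knockdown and 5.58 in control liver at 30 h. Pheta2 read 4.20 in knockdown and 3.12 in control liver at 0 h, and 5.28 in knockdown and 3.57 in control liver at 30 h. Cdpf1 read 4.90 in knockdown and 3.75 in control liver at 0 h, and 5.20 in knockdown and 4.02 in control liver at 30 h. In these 3 genes, as in Slc51b, Mcu and Pdp1, the genotypes did not overlap over the 4 arrays. These 3 genes and Slc51b were picked for 2-fold differences in the same direction at both times, which makes such an order likely. The share of all genes without overlap was not counted.

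**Figure D5:**
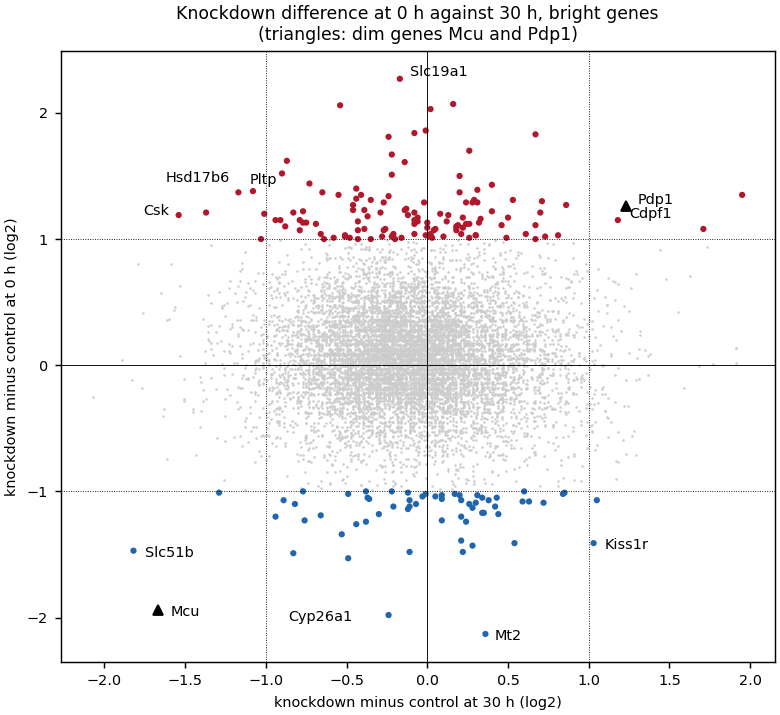
Each point is 1 bright gene, with its difference, knockdown minus control, at 30 h (log2) on the horizontal axis and at 0 h (log2) on the vertical axis. Red points are the 122 genes at least 2-fold higher at 0 h and blue points the 62 at least 2-fold lower, and dotted lines mark 2-fold. The triangles are the dim genes Mcu (-1.94 at 0 h, -1.67 at 30 h) and Pdp1 (1.26 and 1.23), which lie in corners that hold few of the coloured points.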

How the data were processed

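Total RNA (100 ng) from pooled mouse liver was measured on 4 Affymetrix arrays, 1 per group. The authors deposited RMA values, on the log2 scale for each probe set. The submitters' processing notes name Affymetrix Expression Console, and versions, parameters and genome build are not given in these sources. RMA includes a step that equalises the arrays' distributions, which would hide a shift of all genes together. The deposited values still differed slightly between arrays, with medians over probe sets from 3.75 (control 30 h) to 3.84 (knockdown 30 h). Precision is limited by the number of arrays.

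Of 22206 probe sets 19572 carried 1 gene symbol in the platform annotation, and 2634 were unnamed. For the 55 genes with several, the probe set with the highest mean over the 4 arrays was used. Samples were grouped by title. The gene in the knockdown arrays' genotype label is not reported here. Differences were computed with Python 3.11.15 and pandas 2.3.3, alternatives with limma 3.58.1, and the counting was tested on simulated data. No test was run with 1 array on each side.

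The 62 lists (1215 genes, 1111 measured), their members and the comparison were chosen with earlier results of these data known, and no list is independent evidence. Named were the 25 bright genes at each end without predicted genes, small RNAs, chemosensory receptors or antigen receptor segments, up to 6 list members with the largest differences plus defining members, and the calcium transport genes. Others are said to be picked after their values were seen. Promoters are RefSeq sequences of GRCm38.p6, matched by symbol for 15691 genes. The alternatives were median centring, cyclic loess, quantile normalization of 4 or 2 arrays, averaging the probe sets of a gene, other brightness filters, thresholds of 1.5-fold and 3-fold, and list means.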

Additional observations from a re-analysis of the deposited data

Results flagged for a closer look

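Some differences had opposite directions at 0 h and 30 h, each at least 2-fold, and the difference between the times was not tested. They were Hsd17b6 (1.37 at 0 h, -1.17 at 30 h), Pltp, a phospholipid transfer protein (1.38, -1.08), Mcm6 (1.21, -1.37), Prc1, a cytokinesis protein (1.31, -1.01), Kiss1r, the kisspeptin receptor (-1.41, 1.03), and Slc16a3 (-1.70, 1.06). Pltp read 5.85 in knockdown and 4.47 in control liver at 0 h, and 4.02 in knockdown and 5.10 in control liver at 30 h. The medians of 2 lists also turned, those of Kupffer cell markers (0.425 at 0 h, -0.27 at 30 h) and glutathione transferases (0.335, -0.36). The median of bright genes was 0.06 at 0 h and -0.11 at 30 h. The search covered the named genes and the members of all 62 lists.

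Among the 2634 unnamed probe sets, which no comparison above uses, 24 bright ones were 2-fold higher or more in knockdown liver at 0 h, and 5 were lower by that much. The bright ones had a median of 0.03. Groups of 1 array allow no search for outlying samples.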

How the results depend on the processing

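No paired analysis was possible because each group is 1 array. For the 83 single genes, Mcu among them, no alternative moved a difference by more than 0.341, the robust SD of differences over bright genes, and Mcu ran from -1.97 to -1.93. The count of 122 higher genes became 282 without a brightness filter, 33 above percentile 75 of expression, 751 at 1.5-fold and 12 at 3-fold, and the count of 62 lower genes became 244, 5, 438 and 2. After further normalization between arrays the counts were 104 to 110 higher and 66 to 73 lower. Cyclic loess and quantile normalization took the median of bright genes from 0.06 to 0.00, so list medians near 0.1 have no settled direction. After loess, quantile normalization of 4 arrays and of 2 arrays the ER chaperone median was -0.32, -0.33 and -0.33, the MHC class I median 0.15, 0.12 and 0.13, and the glutathione transferase median 0.22, 0.23 and 0.23; the cause was not tested. Fewer members gave an interferon median of 0.34 (bright members, a choice made after seeing the data) or 0.29 (above percentile 75), a stellate median of 0.62 (bright members) and a p53 target median of 0.16 (above percentile 75). The lysosome mean was 0.34. Of 482 list values under alternatives, 70 moved by 0.1 or more.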
